A study of Mus musculus with 2 samples.

Results

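Hemoglobin and erythroid genes were followed in single-cell libraries, described by the study as spleen, from mice of 2 *Ptpn22* genotypes: the adult beta globins *Hbb-bs* and *Hbb-bt*, the adult alpha globins *Hba-a1* and *Hba-a2*, and *Alas2*, *Slc4a1*, *Klf1* and *Gata1*. These 8 members, of 32285 genes counted, were chosen by name because hemoglobin UMIs had been seen to be higher in PEP-WT T cells than in PEP-619WW T cells, so the genotype difference in T cells is given as a description of the choice and supports nothing. The PEP-WT mice carried the wild type allele on the C57BL/6 background. The PEP-619WW mice were homozygous for a CRISPR/Cas9 knock-in that puts tryptophan in place of arginine at residue 619 of PEP, the phosphatase that *Ptpn22* encodes. Mice of the study were 6 to 12 weeks old, and both groups were infected with LCMV-cl13, a variant of lymphocytic choriomeningitis virus that sets up a chronic infection.

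By the study's methods, at 8 days after infection the spleens of 4 to 5 age- and sex-matched mice per genotype were pooled, and live CD45+ cells were sorted and taken into the 10x Genomics 3' assay. The paper names red blood cell lysis in its T cell stimulation protocol. For these libraries it refers to processing described earlier, without naming lysis again. A count is 1 UMI, a tag that stands for 1 captured RNA molecule, and because the assay tags transcripts at their 3' ends the counts do not scale with gene length. Each genotype was deposited as 2 sets of counts, run 1 and run 2, and each run holds 1 library per genotype. How the runs relate to each other, and which of them the methods describe, is not given. Pooling, library and genotype therefore cannot be told apart, no test was possible, and every interval below is an exact 95% interval unless another is named and covers counting error only. The allele is in the germline, so it is carried by erythroid cells, lymphocytes and macrophages alike.

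Hemoglobin is a tetramer of a pair of alpha and a pair of beta chains, each holding a heme. *Alas2* encodes the erythroid form of the enzyme that starts heme synthesis, *Slc4a1* encodes band 3, the anion exchanger of the red cell membrane, and *Gata1* and *Klf1* are transcription factors that drive erythroid differentiation, *Gata1* early and *Klf1* from the committed progenitor onward. In mice the spleen both makes red cells, above all under stress and infection, and removes old ones through its red pulp macrophages, so erythroid precursors, free red cell RNA and engulfed red cells can all lie beside its lymphocytes.

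The promoters of *Hbb-bs*, *Hba-a2*, *Alas2* and *Klf1* are shown because the members are commonly used together as readouts of erythroid transcription. The 250 bases before the RefSeq start (GRCm38.p6) lie at chr7:103827929-103828178 on the minus strand for *Hbb-bs*, chr11:32296242-32296491 on the plus strand for *Hba-a2*, chrX:150547167-150547416 on the plus strand for *Alas2* and chr8:84901732-84901981 on the plus strand for *Klf1*. Capitals mark matches on either strand to any of the motifs searched. The GATA motif was searched as AGATAA and, with the other allowed first letter, as TGATAA. The CACCC motif was searched as CCNCNCCC. The CCAAT and TATAA boxes were searched by those letters, and a match is only a match of letters.
Hbb-bs: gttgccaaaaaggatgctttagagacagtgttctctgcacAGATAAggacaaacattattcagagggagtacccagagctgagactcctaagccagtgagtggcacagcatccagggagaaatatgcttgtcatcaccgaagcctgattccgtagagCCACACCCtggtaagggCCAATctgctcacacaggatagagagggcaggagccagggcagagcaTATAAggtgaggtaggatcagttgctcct
Hba-a2: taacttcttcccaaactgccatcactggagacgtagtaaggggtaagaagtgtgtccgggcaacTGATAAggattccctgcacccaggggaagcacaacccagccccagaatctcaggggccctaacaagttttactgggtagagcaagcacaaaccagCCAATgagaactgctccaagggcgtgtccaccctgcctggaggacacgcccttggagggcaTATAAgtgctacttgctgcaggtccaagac
Alas2: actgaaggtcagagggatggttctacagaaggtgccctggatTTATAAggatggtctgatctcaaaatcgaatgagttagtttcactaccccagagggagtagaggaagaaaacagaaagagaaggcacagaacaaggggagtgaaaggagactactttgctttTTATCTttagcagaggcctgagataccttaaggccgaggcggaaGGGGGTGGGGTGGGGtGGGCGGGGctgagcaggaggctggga
Klf1: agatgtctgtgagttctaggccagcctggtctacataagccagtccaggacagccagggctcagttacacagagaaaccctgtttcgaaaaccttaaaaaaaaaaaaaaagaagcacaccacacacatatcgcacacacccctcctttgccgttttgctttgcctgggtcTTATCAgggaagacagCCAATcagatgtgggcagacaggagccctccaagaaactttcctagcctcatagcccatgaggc

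A GATA motif lay in 5 of the 7 member promoters with an entry, against 16.6% of 32851 promoters of the same length. CCAAT lay in 5 of the 7, the 4 globin genes and *Klf1*, against 33.8%. TATAA lay in 5 of the 7, the 4 globin genes and *Alas2*, against 22.8%, and CACCC in 4 of the 7 against 45.9%. In *Hbb-bs* the CACCC match ran from base -93 to base -86, CCAAT from -76 to -72 and TATAA from -29 to -25, counted from the start. The *Hba-a1* and *Hba-a2* windows were identical over 247 of 247 bases at an offset of 3 bases, whereas those of *Hbb-bs* and *Hbb-bt* matched at 127 of 249 bases (51.0%). In the GENCODE vM21 annotation the genes other than *Gata1* begin inside these windows, and *Gata1* begins upstream of its own.

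The beta globin genes lie on chromosome 7 (*Hbb-bs* 103826534 to 103828096 and *Hbb-bt* 103812524 to 103813996, minus strand) and the alpha globin genes on chromosome 11 (*Hba-a1* 32283511 to 32284465 and *Hba-a2* 32296489 to 32297298, plus strand), here in GENCODE vM21 (GRCm38) coordinates. *Slc4a1* lies on chromosome 11 as well (102348824 to 102366203, minus strand), *Klf1* on chromosome 8 (84901928 to 84905291, plus strand), and *Alas2* (150547375 to 150570638, plus strand) and *Gata1* (7959260 to 7978071, minus strand) on chromosome X. The near-identical copies share sequence that 90-base reads cannot place. Of the 211 windows of 90 bases in the last 300 bases of the transcript, 57.3% of those of *Hba-a1* also occur in *Hba-a2*, and 24.6% of those of *Hbb-bs* also occur in *Hbb-bt*. The split between the copies is therefore uncertain, and most values below are given for the sum of the 4 genes, called globin.

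Before the results, the libraries need a description. Run 1 held 14821 PEP-WT and 8576 PEP-619WW barcodes with medians of 2832 and 3293 UMIs, and run 2 held 9539 and 11029 with medians of 4837 and 3611. Run 2 stands apart: 3 or more of 6 melanocyte genes were detected in 431 of its PEP-WT and 44 of its PEP-619WW barcodes, and in 0 barcodes of run 1, and of its PEP-WT barcodes 28 passed the CD8 T gate and 2 the B gate. It is also the run whose barcode numbers match the cell numbers in the study's methods. The sample labels name liver, a human T cell line and tumor infiltrating cells, whereas their protocol text speaks of splenocytes. Between any 2 libraries 19 to 49 cell barcodes were shared. Values come from run 1 unless run 2 is named.

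Barcodes were classed by gates on genes outside the member list. The erythroid gate needs at least 2 UMIs of *Car1* and *Ermap* together, the C1q macrophage gate at least 5 of *C1qa* and *C1qb* together, the CD8 T gate *Cd3e* and *Cd8b1*, and the B gate *Cd79a* and *Ms4a1*. Levels are given as CPM, the UMIs of a gene or list per 1000000 UMIs of the barcodes, or, where the globin content itself sets the total, as CPM of non-globin UMIs. In the erythroid gate 5 other erythroid markers summed to 2215 CPM in PEP-WT and 1712 in PEP-619WW, against 77.1 to 89.8 and 46.5 to 54.5 in the other 3 gates, and none of the 5 was at 0 in it. T cell markers summed to 3190 and 3027 CPM in the CD8 T gate, against 922 and 927 in all barcodes, B cell markers to 5337 and 4232 in the B gate, against 2778 and 1963, and C1q macrophage markers to 2923 and 3242 in their gate, against 418 and 550.3. Markers of other cell types were present in these gates as well: the 4 plasma cell markers, which include *Xbp1* and *Mzb1*, stood at 3007 to 7005 CPM in them, above the gate's own markers in the CD8 T gate of PEP-619WW, the B gate of PEP-619WW and the C1q macrophage gate of both libraries. Neutrophil (3358) and monocyte (3148) markers were also above the C1q macrophage markers in PEP-WT. In the erythroid gate of PEP-619WW plasma cell (3113) and neutrophil (2911) markers were above the 5 erythroid markers. Their part in the results was not tested. A barcode can pass more than 1 gate, doublets were kept, and 21 of 1439 PEP-WT CD8 T barcodes also passed the erythroid gate.

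Globin RNA was far more abundant in the PEP-WT library than in the PEP-619WW library. It stood at 13333 CPM in PEP-WT (1038845 UMIs) and 1733 in PEP-619WW (98337 UMIs), a 7.69-fold difference. Barcodes with at least 500 genes and at most 10% mitochondrial UMIs held 30.6% of the PEP-WT globin UMIs and 68.7% of those of PEP-619WW, and in them globin stood at 4163 and 1212 CPM, a 3.43-fold difference. Of PEP-WT barcodes 61.7% (60.9 to 62.5) held at least 1 globin UMI, and of PEP-619WW barcodes 26.2% (25.3 to 27.2), but most of the UMIs lay in few barcodes. Barcodes with 100 or more globin UMIs, called globin-rich here, numbered 757 in PEP-WT, a share of 5.11% (4.76 to 5.47), and 83 in PEP-619WW, a share of 0.968% (0.772 to 1.20), and they held 97.8% and 91.7% of all globin UMIs.

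**Figure D1:**
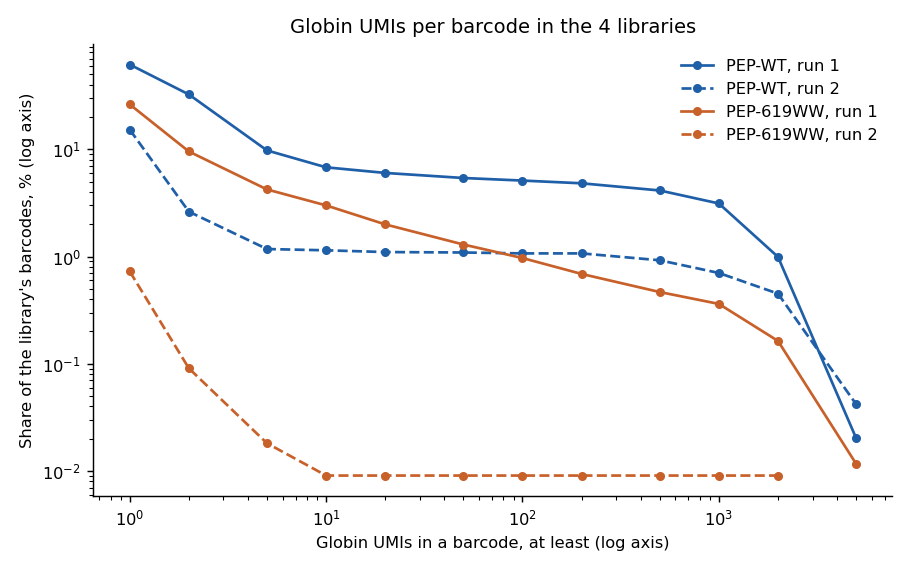
Share of each library's barcodes (vertical axis, %, log) that hold at least the number of globin UMIs on the horizontal axis (log), for both genotypes and runs. In run 1 the PEP-WT line runs nearly flat from 20 UMIs (6.02% of barcodes) to 500 UMIs (4.13%), so barcodes there tended to hold either few or very many globin UMIs, while the PEP-619WW line falls from 1.99% to 0.466% over the same range.

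In PEP-WT 373 barcodes passed the erythroid gate, a share of 2.52% (2.27 to 2.78), and in PEP-619WW 168 did, a share of 1.96% (1.68 to 2.27), with median depths of 8444 and 7749.5 UMIs. All 8 members were detected in it in both libraries and all stood higher in PEP-WT, by less than 2-fold. *Hbb-bs* led in each library at 14084 CPM in PEP-WT and 7271 in PEP-619WW, 1.94-fold (1.91 to 1.97). *Hbb-bt* stood at 5743 and 3875, *Hba-a1* at 3932 and 2835, and *Hba-a2* at 1502 and 891, ratios of 1.39 to 1.69. Summed globin was 1.70-fold higher in PEP-WT (25259.9 against 14873 CPM, interval 1.68 to 1.72). This ratio depended on which barcodes were counted: it was 0.21 on the log2 scale with a stricter gate and 0.95 with a gate on other erythroid genes and 1.40, past 2-fold, with barcodes thinned to 1000 UMIs, against 0.76 as gated, and it was -0.60, lower in PEP-WT, among barcodes of fewer than 20 globin UMIs.

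Of the other members *Alas2* had the largest ratio in the erythroid gate and *Gata1* the smallest. *Alas2* stood at 79.4 CPM in PEP-WT and 39.7 in PEP-619WW (417 and 124 UMIs, ratio 2.00, interval 1.63 to 2.46) and lay just under the 2-fold limit. *Slc4a1* stood at 187 and 119.8 (ratio 1.56, interval 1.38 to 1.76) and *Klf1* at 200.1 and 140.3 (ratio 1.43, interval 1.27 to 1.60). *Gata1* stood at 76.0 and 60.8 (ratio 1.25, interval 1.05 to 1.49). The median log2 ratio of the 8 members was 0.60, beside 0.0081 over all genes tested. At least 2-fold higher in PEP-WT were 0 of 8 members, where 2.51% of 10226 genes were, and at least 2-fold lower were 0 of 8, where 2.19% were.

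**Figure D2:**
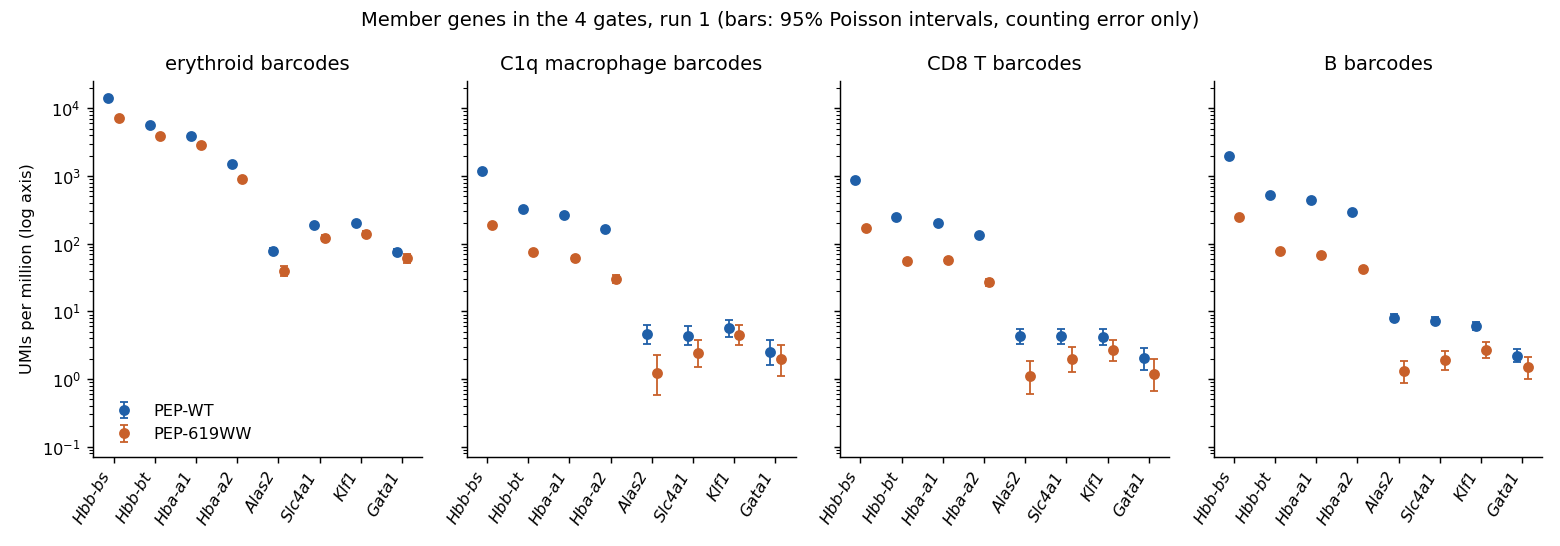
Levels in CPM (log axis) of the 8 member genes in the barcodes of each gate in run 1, PEP-WT in blue and PEP-619WW in orange, with exact 95% Poisson intervals that cover counting error only. The globin genes stand apart between the libraries in all 4 panels, most in the B panel (*Hbb-bs* 1968 against 252) and least in the erythroid panel. The intervals of *Gata1* overlap in all 4 panels, those of *Klf1* in the C1q macrophage and CD8 T panels and those of *Slc4a1* in the C1q macrophage panel.

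Within the erythroid gate *Alas2*, *Slc4a1* and globin were high in the same barcodes, while *Klf1* and *Gata1* were found at every globin level. The ranges are set by member values, so this is a description. Of the 373 PEP-WT barcodes 37 held no globin UMI, 172 held 1 to 19, 44 held 20 to 99, 69 held 100 to below 1000 and 51 held 1000 or more. Across these ranges *Alas2* went from 0 through 0.98, 10.2 and 173 to 676 CPM of non-globin UMIs. *Slc4a1* went from 3.63 where globin was absent to 1316 in the highest range. The transcription factors varied far less: *Klf1* stood between 159 and 429 in all 5 ranges and *Gata1* between 58.1 and 107. *Car1*, a gate gene, was highest where globin was absent, at 1819, and 491 in the highest range. In PEP-619WW barcodes *Alas2* stood at 0, 1.43, 6.84, 52.6 and 171, and *Gata1* between 52.6 and 73.0. From 20 globin UMIs up, *Alas2* and *Slc4a1* per non-globin UMI were thus lower in PEP-619WW than in PEP-WT in each range. *Klf1* was too, at 230, 168 and 146 in PEP-619WW against 251, 253 and 429. Below 20 globin UMIs *Klf1* stood at 65.8 and 111 in PEP-619WW. In the range of 20 to 99 *Alas2* rests on 6 PEP-WT and 3 PEP-619WW UMIs and *Klf1* on 148 and 101. No intervals of these differences were computed. The highest range held 16 PEP-619WW and 51 PEP-WT barcodes, which differed in depth (medians of 19632.5 and 8142 UMIs) and in the globin share of their UMIs (6.48% and 19.5%), and the part these play was not tested. Barcodes at the edge of the gate were already mixed, since 14.4% of the 250 PEP-WT barcodes with 1 UMI of *Car1* or *Ermap* and 31.1% of the 74 with 2 held a *Klf1* UMI. Those with 1 held 181 globin UMIs per barcode, those with 2 held 390.5 and in PEP-619WW the same edge stood at 35.3 and 31.0.

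**Figure D3:**
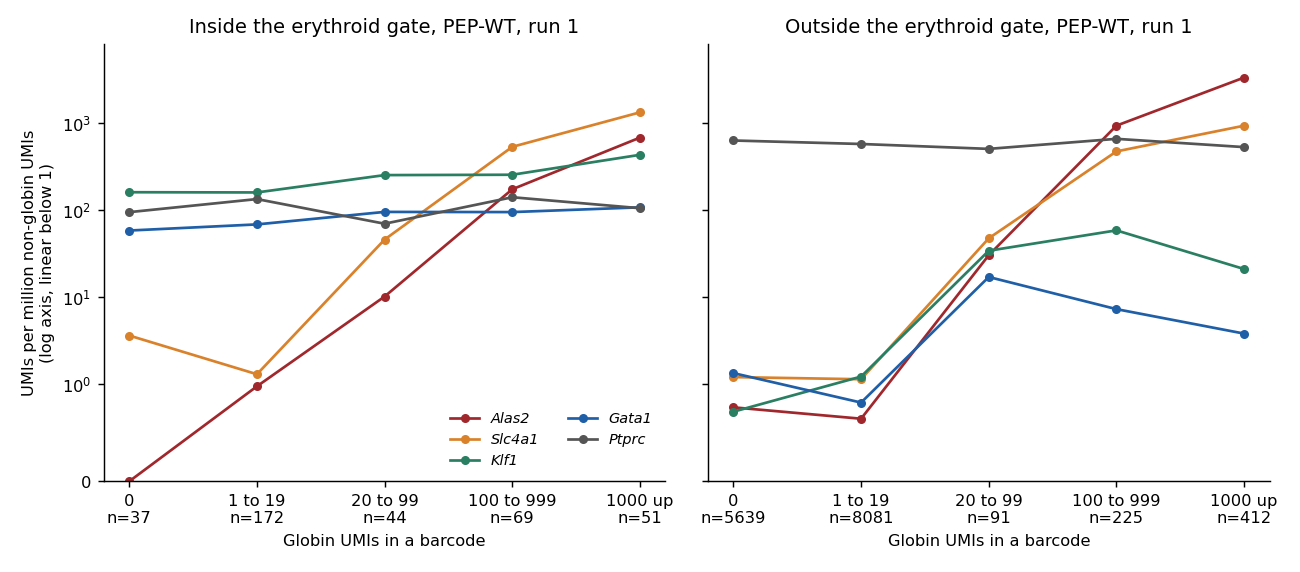
Levels of *Alas2*, *Slc4a1*, *Klf1*, *Gata1* and *Ptprc* in CPM of non-globin UMIs (vertical axis, log, linear below 1) against the globin UMIs of a barcode, inside and outside the erythroid gate in the PEP-WT library of run 1, with the number of barcodes under each range. Inside the gate *Klf1* stays between 159 and 429 and *Gata1* between 58.1 and 107; outside it *Klf1* peaks at 58.3 in the range of 100 to below 1000 and is 21.02 in the highest range, where *Alas2* reaches 3297.

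Most globin RNA of PEP-WT lay outside the erythroid gate, in barcodes rich in *Alas2* and poor in *Klf1* and *Gata1*. There were 637 globin-rich barcodes outside the gate in PEP-WT and 35 in PEP-619WW, and they held 85.3% and 46.2% of each library's globin UMIs, against 12.8% and 47.2% in the gate. With the limits on genes and mitochondrial UMIs 152 of the 637 and 16 of the 35 remained, and the gate then held 36.7% and 68.5% of the globin UMIs. With counts thinned to 1000 UMIs per barcode, and the gate still set on the full counts, the gate held 6.25% and 19.9%. In the 412 PEP-WT barcodes outside the gate with 1000 or more globin UMIs, globin was 59.4% of all UMIs at a median depth of 2197, and *Alas2* was found in 97.3% of them. *Klf1* was found in 0.728% and *Gata1* in 0.485% of the same barcodes, compared with 84.3% and 52.9% inside the gate at the same globin range. In the 15 such PEP-619WW barcodes globin was 74.2% of UMIs, *Alas2* was found in 100%, and *Klf1* and *Gata1* had 0 UMIs. Their median depth was 2686 UMIs, so they held few non-globin UMIs, and the 0 does not show that these transcripts were absent. *Ptprc*, which encodes CD45, the marker of the sort, was found in 16.3% of the 412 PEP-WT barcodes and 6.67% of the 15 PEP-619WW barcodes, compared with 74.1% of the 5639 PEP-WT barcodes outside the gate without globin (median depth 2555). Per non-globin UMI its level in the 412 was 525.6 CPM and in the 5639 it was 626, so the shares differ far more than the levels.

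A second erythroid gate, at least 2 UMIs of *Rhag*, *Epb42* and *Hemgn* together, was added after seeing the data. In PEP-WT 279 barcodes passed it (1.88%, 1.67 to 2.11) and 92 did in PEP-619WW (1.07%, 0.866 to 1.31), of which 209 and 76 also passed the first. The difference in the share of erythroid barcodes was 0.81 percentage points (0.488 to 1.12, Newcombe's interval from the exact limits of both shares) by this gate and 0.558 (0.157 to 0.945) by the first. With the first gate applied to counts thinned to 1000 UMIs per barcode the difference was 0.172 (-0.108 to 0.434), an interval that includes 0. Stricter gates (0.310) and the limits on genes and mitochondrial UMIs (0.420) also gave intervals that include 0. Of the 637 globin-rich PEP-WT barcodes outside the first gate 44 passed the second, at a median of 762.5 globin UMIs, and 593 passed neither, at a median of 1335. In PEP-619WW 8 of 35 passed the second. By this gate erythroid barcodes held 16.4% of the globin UMIs in PEP-WT and 53.3% in PEP-619WW.

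The members divided by where their UMIs lay. In PEP-WT *Klf1* and *Gata1* lay in the erythroid gate (89.1% and 82.8% of their UMIs), and globin-rich barcodes outside it held 2.97% and 1.04%. *Alas2* had the opposite pattern, with 16.1% in the gate and 81.4% in globin-rich barcodes outside it, and *Slc4a1* was divided, at 55.6% and 38.4%. Among the globin genes the share in the gate was lowest for *Hba-a2* (7.76%) and highest for *Hbb-bt* (18.3%). PEP-619WW also had most of its *Klf1* (91.1%) and *Gata1* (88.4%) in the gate, and a larger share of its *Alas2* (48.8%) and *Slc4a1* (78.7%) there.

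**Figure D4:**
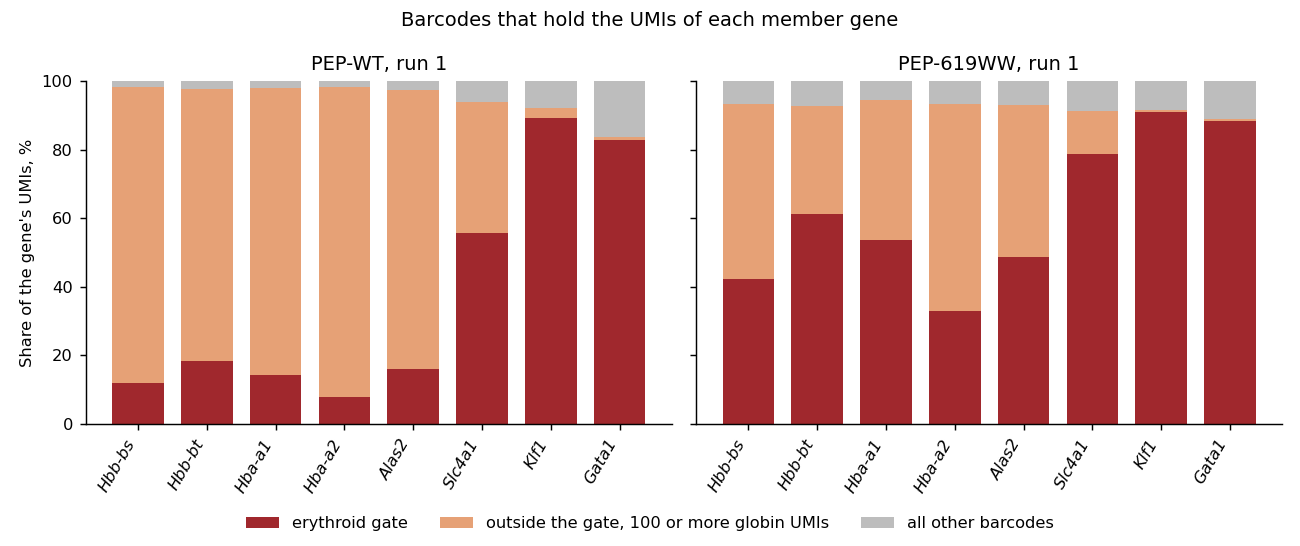
Share (%) of the UMIs of each member gene that lay in the erythroid gate (red), in barcodes outside it with 100 or more globin UMIs (orange) and in all other barcodes (grey), for the 2 libraries of run 1; each bar adds to 100%. The globin and *Alas2* bars are mostly orange in PEP-WT, at 79.4% to 90.4%, and *Klf1* and *Gata1* are mostly red in both libraries.

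CD8 T barcodes gave the contrast by which the members were chosen. Globin stood at 1472 CPM in 1439 PEP-WT barcodes and 309 in 953 PEP-619WW barcodes, 4.77-fold apart (4.61 to 4.94). *Hbb-bs* stood at 889 and 170.5, *Hbb-bt* at 246 and 54.7, *Hba-a1* at 204 and 56.6, and *Hba-a2* at 133 and 26.8. *Alas2* had 60 UMIs in PEP-WT and 14 in PEP-619WW, 3.88-fold (2.14 to 7.52), and *Slc4a1* 60 and 25, 2.17-fold (1.34 to 3.62). The intervals of *Klf1* (58 and 34 UMIs, 0.995 to 2.43) and *Gata1* (28 and 15 UMIs, 0.873 to 3.41) included a ratio of 1. At least 2-fold higher in PEP-WT were 6 of 8 members, beside 2.81% of 12218 genes, and 0 of 8 were at least 2-fold lower, beside 1.91%, from which nothing is read since this contrast chose them. Their median log2 ratio was 1.90, beside 0.0032 over all genes.

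The globin of CD8 T barcodes lay mostly in a few of them. Globin-rich barcodes numbered 19 in PEP-WT and 3 in PEP-619WW, and held 87.8% and 75.1% of the globin UMIs of the gate. The 19 had a median of 8053 UMIs, against 5931 in the 1407 barcodes with fewer than 20 globin UMIs. The 5 erythroid markers stood at 1625 CPM of non-globin UMIs in them against 53.1, the C1q macrophage markers at 1346 against 421, and the T cell markers at 2683 against 3213. Of the 19, 14 held *Alas2*, 8 held *Slc4a1*, 6 held *Klf1* and 5 also passed the erythroid gate, and the part that doublets play in them was not tested. Barcodes that passed exactly 1 gate and had no *Car1* or *Ermap* UMI held 14988 globin UMIs in PEP-WT and 618 in PEP-619WW, and the log2 ratio was 4.51 in them, 2.25 over the whole gate and 1.92 in barcodes with fewer than 20 globin UMIs.

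Globin was higher in PEP-WT in B barcodes as well. Over the whole gate its log2 ratio, 2.88, was above that of CD8 T barcodes. It stayed above when barcodes were thinned, with stricter gates, with the limits on genes and mitochondrial UMIs and per barcode. In barcodes of exactly 1 gate it was 3.17 and below 20 globin UMIs 1.86, under the CD8 T values of 4.51 and 1.92, the latter by little. Globin stood at 3222 CPM in 6937 PEP-WT barcodes and 439 in 3144 PEP-619WW barcodes, 7.35-fold apart (7.19 to 7.50). *Hbb-bs* stood at 1968 and 252 and *Hba-a2* at 295 and 42.3. *Alas2* had 288 and 28 UMIs, 6.22-fold (4.22 to 9.53), *Slc4a1* 261 and 41, 3.85-fold (2.76 to 5.49), and *Klf1* 214 and 58, 2.23-fold (1.66 to 3.04). *Gata1* had 79 and 32 UMIs, at a ratio of 1.49 with an interval of 0.979 to 2.33. At least 2-fold higher in PEP-WT were 7 of 8 members, against 1.95% of 13316 genes, and 0 of 8 were at least 2-fold lower, against 2.55%. The median log2 ratio of the members was 2.67, beside -0.019 over all genes. The 88 globin-rich PEP-WT barcodes held 91.6% of these globin UMIs, 78 of them held *Alas2*, and 18 also passed the erythroid gate.

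The C1q macrophage gate can take in macrophages other than the red pulp macrophages that remove old red cells. Per barcode its globin was above that of CD8 T and B barcodes, at 29.6 UMIs in PEP-WT and 5.85 in PEP-619WW, and in CPM it stood between them. It was 1949 CPM in 598 PEP-WT barcodes and 354 in 494 PEP-619WW barcodes, 5.51-fold apart (5.29 to 5.73). *Hbb-bs* stood at 1191 and 187 and *Hba-a2* at 163 and 30.2, and *Alas2* had 42 and 10 UMIs (ratio 3.77, interval 1.86 to 8.43). The ratios of *Slc4a1* (1.80, interval 1.03 to 3.24), *Klf1* (1.24, interval 0.795 to 1.94) and *Gata1* (1.29, interval 0.653 to 2.61) were under 2. At least 2-fold higher in PEP-WT were 5 of 8 members, against 2.62% of 11619 genes, and 0 of 8 were at least 2-fold lower, against 1.96%. The median log2 ratio of the members was 2.01, beside 0.017 over all genes. The B and macrophage contrasts share their libraries with the CD8 T contrast. The 18 globin-rich PEP-WT barcodes held 91.2% of the globin UMIs and the 4 in PEP-619WW held 85.0%. At the edge of this gate the 129 PEP-WT barcodes with 4 UMIs of *C1qa* and *C1qb* held 55.9 globin UMIs per barcode and the 79 with 5 held 59.9. With barcodes of exactly 1 gate and no *Car1* or *Ermap* UMI the log2 ratio was 6.61 in place of 2.46, and with barcodes of fewer than 20 globin UMIs 1.73. Like those given above for CD8 T and B barcodes, this last value keeps barcodes that also passed the erythroid gate. With these left out the log2 ratios were 2.11 in C1q macrophage, 2.07 in CD8 T and 2.00 in B barcodes.

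A low level of globin was spread over all classes, including those not known to make hemoglobin. At least 1 globin UMI was found in 67.5% of CD8 T, 59.3% of B, 65.1% of NK and 68.2% of neutrophil barcodes in PEP-WT, at median depths of 6038, 2837, 3409 and 3897 UMIs. In PEP-619WW the shares were 27.3%, 23.1%, 23.8% and 25.1%, at medians of 8660, 3496, 4144 and 4676. With each barcode thinned to 1000 UMIs, and 978 PEP-WT and 1173 PEP-619WW shallower barcodes left out, the shares were 20.9%, 27.6%, 32.5% and 28.3% in PEP-WT and 5.84%, 7.21%, 7.14% and 7.22% in PEP-619WW. Erythroid barcodes thinned likewise had 56.8% (51.4 to 62.01) in PEP-WT and 65.2% (57.2 to 72.6) in PEP-619WW, which overlap. C1q macrophages, at 25.6% (22.0 to 29.4) and 7.41% (5.18 to 10.2), overlapped the intervals of CD8 T (18.8 to 23.1 and 4.43 to 7.53), B, NK and neutrophil barcodes in both libraries, classes that should lack hemoglobin. Plasma cell barcodes, at 14.8% (12.5 to 17.3) in PEP-WT and 6.87% (5.36 to 8.65) in PEP-619WW, overlapped them in PEP-619WW alone. RNA of the cell itself cannot be told apart here from free or engulfed RNA. The share with a *Klf1* UMI among the low-globin CD8 T barcodes was 0.853% in PEP-WT and 1.06% in PEP-619WW.

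Leaving out the erythroid gate and barcodes with 20 or more globin UMIs gave the level of this spread. CD8 T barcodes then held 1.43 globin UMIs each in PEP-WT and 0.468 in PEP-619WW, a ratio of 3.06 (2.76 to 3.40). B barcodes held 1.16 and 0.391, a ratio of 2.95 (2.78 to 3.14), and C1q macrophages 2.21 and 0.567, a ratio of 3.90 (3.41 to 4.46). CD4 T cells had a ratio of 3.61, neutrophils 3.98, monocytes 2.89, plasma cells 3.34 and megakaryocytes 2.65 (1.66 to 4.46). With the limit at 100 globin UMIs the monocyte ratio was 1.81 (1.55 to 2.11), since 212 PEP-619WW monocytes with 117 globin UMIs became 215 with 211. The ratio of NK barcodes was 6.48 (3.17 to 15.4) and that of basophils 0.946 (0.586 to 1.57), from 81 and 40 NK and 33 and 14 basophil barcodes. With the limit at 50 globin UMIs the NK ratio was 0.932 (0.669 to 1.31) and that of basophils 1.65 (1.06 to 2.64), so both rest on very few barcodes. Over all such barcodes, with those that passed no gate, it was 2.49 (2.41 to 2.58). The ratio of CD8 T barcodes was 2.05 with the limit at 100 globin UMIs and 3.36 with the limit at 5. All these ratios are per barcode and take no account of depth. Per UMI, with the limit at 20, the ratio was 4.19 in CD8 T, 3.99 in B and 4.32 in C1q macrophage barcodes. It was 4.10 in CD4 T, 4.08 in neutrophil, 4.33 in monocyte, 3.81 in plasma cell and 1.79 in megakaryocyte barcodes. In NK it was 7.77, in basophil barcodes 0.995 and over all 3.11.

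In PEP-WT the barcodes of 16000 or more UMIs held more of this globin than those of 4000 to 8000, in macrophages, CD8 T and B barcodes alike. Per UMI the direction was the opposite, since globin went from 223 to 99.4 CPM in macrophages, from 219 to 89.5 in CD8 T and from 221 to 86.4 in B barcodes between these depths. This was not particular to macrophages, since from 16000 up neutrophils held 3.82 (3.39 to 4.28) and megakaryocytes 4.97 (4.23 to 5.80) globin UMIs per barcode. Between 8000 and 16000 total UMIs the PEP-WT means were 2.32 (2.09 to 2.57) per C1q macrophage, 1.55 (1.41 to 1.70) per CD8 T and 1.66 per B barcode. From 16000 up they were 3.18 (2.91 to 3.46), 2.54 (2.33 to 2.76) and 2.37. In PEP-619WW the corresponding means of 8000 to 16000 were 0.654, 0.498 and 0.460, and from 16000 up 0.683, 0.550 and 0.608. Between 4000 and 8000 UMIs PEP-WT macrophages (1.32, interval 1.11 to 1.55) and CD8 T barcodes (1.25, interval 1.15 to 1.36) overlapped. In the deeper ranges given above they did not. At 2000 to 4000 UMIs they did not overlap either, at 1.79 (1.43 to 2.21) and 0.963 (0.867 to 1.07), while at 1000 to 2000 they did. In PEP-619WW the macrophage and CD8 T intervals overlapped at 8000 to 16000 (0.532 to 0.795 and 0.420 to 0.587). They also overlapped from 16000 up (0.563 to 0.820 and 0.454 to 0.659).

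**Figure D5:**
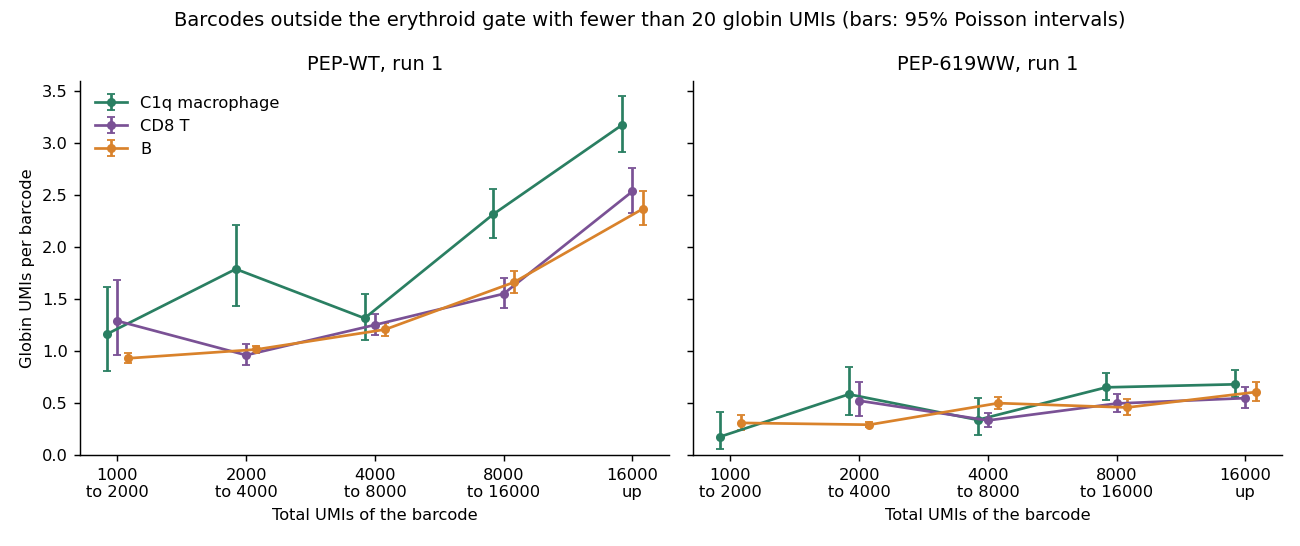
Mean globin UMIs per barcode (vertical axis) against the total UMIs of the barcode, for C1q macrophage, CD8 T and B barcodes outside the erythroid gate with fewer than 20 globin UMIs in run 1, with exact 95% Poisson intervals. PEP-WT points reach 3.18 in the deepest macrophages, and PEP-619WW points stay at or under 0.683.

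The macrophages that handle red cells were compared with the rest of their gate. *Spic* encodes the factor that specifies red pulp macrophages and *Hmox1* the enzyme that breaks down heme. Among PEP-WT C1q macrophages below 20 globin UMIs the 218 with a *Spic* UMI held 2.55 (2.34 to 2.77) globin UMIs and the 340 without it 1.99 (1.84 to 2.15), at median depths of 13168 and 8211. At 8000 to 16000 total UMIs the values were 2.14 (1.80 to 2.52) and 2.44 (2.14 to 2.77), which overlap, and from 16000 up 3.47 (3.10 to 3.87) and 2.82 (2.45 to 3.22), which overlap too. Overlap of intervals here does not show that values are equal, and no interval of their ratio was computed. With and without *Hmox1* they were 2.62 (2.31 to 2.97) and 1.90 (1.58 to 2.25) at 8000 to 16000, which do not overlap, and 3.20 and 3.12, with overlapping intervals, from 16000 up. In PEP-619WW the macrophages with *Spic* held 0.519 and those without 0.590, again overlapping. With and without *Hmox1* the PEP-619WW values were 0.701 (0.527 to 0.915) and 0.605 (0.443 to 0.807) at 8000 to 16000, and 0.579 (0.454 to 0.728) and 1.00 (0.718 to 1.36) from 16000 up, the opposite direction to PEP-WT, with intervals that overlap. *Cd163*, which encodes the hemoglobin scavenger receptor, was found in fewer than 20 run 1 macrophages of each library, too few to compare. In run 2 the 402 PEP-WT macrophages with it held 0.286 (0.236 to 0.343) globin UMIs and the 5425 without it 0.173 (0.162 to 0.184), at median depths of 13692.5 and 7673. The values did not overlap from 16000 UMIs up, at 0.374 (0.286 to 0.481) and 0.244 (0.214 to 0.278), but overlapped at 8000 to 16000, at 0.248 (0.173 to 0.345) and 0.193 (0.173 to 0.215).

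The 4 globin genes did not keep 1 ratio across barcodes. In PEP-WT *Hbb-bs*, *Hbb-bt*, *Hba-a1* and *Hba-a2* were 55.8%, 22.7%, 15.6% and 5.95% of globin UMIs in the erythroid gate. In the globin-rich barcodes outside it they were 61.0%, 14.8%, 13.8% and 10.4%. *Hba-a2* thus had a larger share outside the gate, 10.4% (10.3 to 10.4) against 5.95% (5.82 to 6.07), and *Hbb-bt* a smaller one. PEP-619WW had the same difference, with *Hba-a2* at 11.2% (10.9 to 11.5) outside and 5.99% (5.78 to 6.21) inside. The shares of near-identical copies carry the uncertainty in read placement given above.

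In the low globin of PEP-WT lymphocytes and macrophages the *Hba-a2* share was near that of the globin-rich barcodes outside the gate, and in PEP-619WW macrophages it was lower than in those. The *Hbb-bt* share of B barcodes was higher than in the globin-rich barcodes outside the gate in both libraries, and that of PEP-WT C1q macrophages was higher too. In PEP-WT barcodes below 20 globin UMIs *Hba-a2* was 10.1% (8.81 to 11.5) in CD8 T, 9.72% (9.07 to 10.4) in B and 10.3% (8.66 to 12.1) in C1q macrophage barcodes. *Hbb-bt* was 15.9% (14.3 to 17.6), 18.1% (17.2 to 18.96) and 17.2% (15.1 to 19.4). Erythroid barcodes below 20 globin UMIs held *Hbb-bt* at 34.9% (31.3 to 38.6) and *Hba-a2* at 6.74% (4.96 to 8.91). In PEP-619WW the *Hba-a2* share was 10.6% in CD8 T (7.85 to 13.9) and 10.1% in B barcodes (8.42 to 11.9), and 7.04% in C1q macrophages (4.29 to 10.8), while *Hbb-bt* was 23.6% in B barcodes (21.2 to 26.1), against 13.8% in globin-rich barcodes outside the gate. The alpha globin share of PEP-WT was 25.2% in low CD8 T barcodes, 22.0% in low B barcodes and 27.0% in low C1q macrophages, and the intervals of the B and macrophage shares did not overlap (21.1 to 22.9 and 24.6 to 29.6).

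*Alas2* and *Klf1* were also set against globin. *Alas2* was 3.14 per 1000 globin UMIs in the PEP-WT erythroid gate and 2.38 in the globin-rich barcodes outside it. *Klf1* was 7.92 per 1000 globin UMIs in the gate and 0.039 in the globin-rich barcodes outside it. Over the whole CD8 T gate *Alas2* was 2.94 per 1000 globin UMIs in PEP-WT, compared with 2.49 in all PEP-WT barcodes and 2.58 in all PEP-619WW barcodes.

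Other classes were ordered by their globin level in PEP-WT as NK (6029 CPM), CD4 T (1976), neutrophil (1815), monocyte (1204), plasma cell (724), megakaryocyte (538) and basophil (278). In PEP-619WW the order was neutrophil (1404), plasma cell (375), NK (253), basophil (163), megakaryocyte (103), CD4 T (103) and monocyte (72.9). The megakaryocyte and CD4 T levels of PEP-619WW, from 20 and 287 UMIs, did not differ beyond counting error. A few globin-rich barcodes set most of these levels: in PEP-WT 2 of 83 NK barcodes held 95.6% of the NK globin and 14 of 691 neutrophil barcodes 87.4%, and in PEP-619WW 2 of 494 neutrophil barcodes held 94.8%.

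Of the other erythroid genes none was at least 2-fold apart in the erythroid gate, where 2.51% of 10226 genes were higher in PEP-WT and 2.19% lower. The lists held heme synthesis (10 of 10 genes with at least 20 UMIs), membrane and skeleton (12 of 12), regulators (9 of 9), iron uptake, chaperone and other (12 of 13, *Ahsp* not analysed here) and other globins (1 of 6). Their median log2 ratios, PEP-WT over PEP-619WW, were 0.40, 0.24, 0.20, 0.31 and 0.55, beside 0.0081 over all genes tested. The highest ratios were those of *Bpgm*, the enzyme that makes the hemoglobin ligand bisphosphoglycerate (0.90, interval 0.48 to 1.34), *Epb42*, a membrane skeleton protein (0.87, interval 0.37 to 1.39), and *Trim10* (0.82, interval 0.44 to 1.21). The lowest were *Rhag*, which encodes the Rh-associated glycoprotein (-0.40, interval -0.57 to -0.23), *Cpox*, an enzyme of heme synthesis (-0.11, interval -0.21 to -0.01) and *Epb41*, a membrane skeleton protein (-0.11, interval -0.32 to 0.11).

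*Sptb* and *Hemgn* were at least 2-fold higher in PEP-WT in CD8 T, B and C1q macrophage barcodes. None of the 10 listed genes of heme synthesis was in any of these. That list leaves out the member *Alas2*, which was at least 2-fold higher in PEP-WT in each of them. Among CD8 T barcodes 0 of 10 heme synthesis genes, 1 of 10 membrane genes (*Sptb*, which encodes a spectrin of the membrane skeleton), 0 of 8 regulators and 3 of 11 others (*Hemgn*, *Car2* and *Tspan33*) were at least 2-fold higher in PEP-WT, and 0 were lower. *Sptb* had 24 and 9 UMIs there, a log2 ratio of 1.27 (0.12 to 2.56). Among B barcodes 0 of 10, 3 of 12 (*Rhd*, *Epb42* and *Sptb*), 3 of 9 (*Tal1*, *Sox6* and *Epor*) and 2 of 12 (*Hemgn* and *Trim10*) were. *Sptb* had 73 and 17 UMIs in B barcodes, a log2 ratio of 1.38 (0.60 to 2.23), and *Hemgn* 202 and 61, a log2 ratio of 1.00 (0.58 to 1.44). In C1q macrophages 1 of 10 membrane genes (*Sptb*) and 1 of 11 others (*Hemgn*) were, and *Sptb*, at 18 and 8 UMIs, had an interval that includes no difference (log2 ratio 1.01, -0.26 to 2.42). Over all genes tested 2.81% were at least 2-fold higher in PEP-WT in CD8 T, 1.95% in B and 2.62% in C1q macrophage barcodes. These genes are named because they passed 2-fold, and so were chosen after their values were seen.

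The genes whose level was most like that of globin were found over the 22 combinations of class and library in run 1, as Pearson's r of log2(CPM + 1) among 13602 genes. Outside the members they were *Apol11b* (0.919), *Paqr9* (0.864), *Tmcc2* (0.836), *Apol8* (0.815) and *Trim10* (0.812). Of the members *Alas2* was at 0.975, *Slc4a1* at 0.888, *Klf1* at 0.647 and *Gata1* at 0.569. The points share libraries and, where classes overlap, barcodes, so these values are a description.

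Run 2 held globin but no barcode of the erythroid gate. In PEP-WT 0 of 9539 barcodes passed it, which allows a share of up to 0.0314% (3 barcodes of the total, a limit used in place of an exact interval), and in PEP-619WW 0 of 11029, which allows up to 0.0272%. The second erythroid gate took 0 PEP-WT and 7 PEP-619WW barcodes of this run, and the 7 held 1 globin UMI in all. Globin stood at 2709 CPM in PEP-WT, of which 102 globin-rich barcodes held 99.1%, and at 43.7 in PEP-619WW, where 1 barcode held 2332 of 2428 globin UMIs. Of PEP-WT barcodes 15.2% held at least 1 globin UMI, and of PEP-619WW barcodes 0.725%. *Alas2* had 256 and 4 UMIs, *Slc4a1* 17 and 1, *Klf1* 10 and 5, and *Gata1* 1 and 8. Alpha globin was 33.7% of PEP-WT globin UMIs, compared with 23.8% in run 1. Among barcodes below 20 globin UMIs, C1q macrophages held 0.181 in PEP-WT and 0.0107 in PEP-619WW, a ratio of 16.9 (11.01 to 27.4), and CD8 T barcodes 0.143 and 0.00761, from 4 and 3 UMIs. Over the whole gate the log2 ratio of C1q macrophages was 8.16 in run 2, against 2.46 in run 1. Globin was thus higher in the PEP-WT library in both runs.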

How the data were processed

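Gene expression was measured in 2 genotypes by single-cell RNA sequencing, each deposited as 2 runs. The study describes the cells as sorted CD45+ splenocytes, but the sample labels name other sources, and the tissue of neither run is settled. The values are UMI counts per gene and barcode, deposited by the authors as tables of 32285 genes. The submitters' processing notes name Cell Ranger 6.0.0 and mm10. Ensembl IDs were given symbols from GENCODE vM21, which named 32158 of them.

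Counts were summed over the barcodes of each gate and divided by the summed UMIs. With 1 library per genotype and run, no test was run. Values carry exact 95% Poisson or Clopper-Pearson binomial intervals, which cover counting error only. Folds across genes used genes with at least 20 UMIs over both libraries of a class, and a gene was counted at 2-fold or more. The run 2 barcode numbers, 9539 and 11029, equal the cell numbers in the study's methods. Run 1 was taken as the main run, a choice made with earlier results of both runs known.

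The members and gene lists were chosen with earlier results of these data known, and the limits of 20 and 100 globin UMIs were set after seeing the data. Some genes of these lists are not reported here, the counts and medians of lists leave them out, and the second erythroid gate was built without them in place of a planned one. By the rule for named genes, those beside the members are the 3 highest and 3 lowest other erythroid genes in the erythroid gate and the 5 most like globin among genes with at least 50 UMIs. Gate, marker and macrophage genes, and list genes past 2-fold in the other gates, are named outside that rule. No doublet caller was run. The ratio and interval calculations were also run on simulated counts. Those counts were independent, whereas globin UMIs here lay mostly in few barcodes, so the simulation does not show how reliable the 2-fold counts are. Promoter sequences are RefSeq's (GRCm38.p6). Alternatives were run 2, thinning, other gates, filters on barcodes, no count filter and median-ratio scaling. Figures were drawn with matplotlib 3.10.9, and values computed in Python 3.11.15 with pandas 2.3.3, numpy 2.4.6 and scipy 1.17.1.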

Additional observations from a re-analysis of the deposited data

How the results depend on the processing

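Of 144 alternative values, 64 lay within the counting interval of the reported value or within 1.5 times a reported count, 75 lay outside it in the same direction and 5 had the opposite sign. The cause of these differences was not tested, and the limits on globin UMIs and the second erythroid gate were chosen after seeing the data. No paired analysis was possible because each genotype has 1 library per run and no test was run. Run 2 gave no value where erythroid barcodes are needed, and the *Alas2* comparison of PEP-619WW could not be made after thinning.

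Over all barcodes the log2 ratio of globin, PEP-WT over PEP-619WW, was 2.94, and 5.95 in run 2, 3.33 thinned, 3.07 with *Mt2* below 10, 1.78 with the gene and mitochondrial limits and 1.51 without barcodes of 20 or more globin UMIs, alternatives added after seeing the data. By gate it was 2.25 in CD8 T, 2.88 in B, 2.46 in C1q macrophage and 0.76 in erythroid barcodes. It was 3.89, 4.31 and 8.16 in the first 3 of these in run 2, where the B value rests on 1 and 4 UMIs. Thinned to 1000 UMIs per barcode the 4 values were 2.70, 2.92, 3.03 and 1.40, in barcodes of exactly 1 gate 4.51, 3.17, 6.61 and 0.61, and with stricter gates 2.48, 3.19, 2.94 and 0.21. With at least 500 genes and at most 10% mitochondrial UMIs they were 2.20, 2.84, 2.28 and 0.59, per barcode 1.80, 2.46, 2.34 and 0.36, and without barcodes of 20 or more globin UMIs 1.92, 1.86, 1.73 and -0.60. With *Mt2* below 10 UMIs CD8 T was at 2.93 and erythroid at 0.62, without the top 1% of barcodes C1q macrophage was at 3.75 and erythroid at 0.89, and the second erythroid gate gave 0.95.

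The share of globin UMIs in erythroid barcodes, PEP-WT then PEP-619WW, was 6.25% and 19.9% with counts thinned and the gate set on the full counts. It was 10.4% and 44.2% with exactly 1 gate, 6.62% and 39.5% with stricter gates, and 16.4% and 53.3% with the second gate. With *Mt2* below 10 it was 12.5% and 40.7%, with the gene and mitochondrial limits 36.7% and 68.5%, and without the top 1% 11.4% and 38.4%.

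The alpha globin share of CD8 T minus erythroid barcodes was 1.39 points in PEP-WT, and 2.49 with stricter gates, 0.45 with the second gate and 4.09 below 20 globin UMIs. It was 1.98 points in PEP-619WW, and -0.043 with exactly 1 gate, -1.40 without the top 1% and 8.51 below 20. The log2 ratio of *Alas2* per globin UMI, CD8 T over erythroid, was -0.097 in PEP-WT, and -0.55 thinned and 0.68 without the top 1%. In PEP-619WW it was 0.44, and -0.70 with exactly 1 gate, from 1 CD8 T UMI.

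With no count filter, genes at least 2-fold higher and lower in PEP-WT numbered 2184 and 1589 in erythroid, 2141 and 2025 in C1q macrophage, 2217 and 2094 in CD8 T, and 2476 and 2027 in B barcodes, in place of 257 and 224, 304 and 228, 343 and 233, and 260 and 340. In run 2 they numbered 1169 and 1387 in C1q macrophages, 1435 and 3997 in B barcodes, and 376 and 1620 in CD8 T barcodes, of which PEP-WT had 28. The ratio of globin in barcodes with little of it was 2.44 and 2.05 in CD8 T with limits of 50 and 100. In B barcodes it was 3.36, 3.42, 2.51 and 2.69 with limits of 5, 10, 50 and 100, and in C1q macrophages 3.28 with a limit of 5.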
